A study of Mus musculus with 17 samples.

Results

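The 36 genes described here include p53, encoded by Trp53 in the mouse, and its 3 feedback regulators Mdm2, Mdm4 and Ppm1d. The other 32 are listed as transcriptional targets of p53, and whether each responds to p53 in mouse lung was not tested. The 36 genes were taken by symbol from the gene count table of irradiated mouse lungs, in which each had 1 row among 45777 genes. All 36 passed the filter on low counts and were tested together with 22052 genes in all. The rule names symbols and no measured value, but the list was drawn up with earlier results of these data known.

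The p53 protein is a transcription factor that is held at a low level by the ubiquitin ligase MDM2 and by its partner MDM4. DNA breaks from ionizing radiation activate the kinases ATM and CHK2, p53 is then released from MDM2, and it binds to pairs of short motifs near its target genes. These targets halt the cell cycle, trigger apoptosis, assist DNA repair and adjust metabolism, and Mdm2 and Ppm1d, being targets themselves, close feedback loops. In the irradiated lung, p53 has been studied in epithelial and endothelial cells, in which its targets bear on both survival and lasting growth arrest.

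RNA was sequenced from lungs of wild-type male C57BL/6 mice, which had been 6 weeks old before 1 week of acclimatisation. The left lung received 65 Gy or 75 Gy as one focal fraction from an image-guided irradiator, and RNA was taken from the lesion after 2 weeks, the inflammation stage, or after 6 weeks, the fibrosis stage. Non-irradiated mice were sampled at the same times. There were 3 libraries for non-irradiated lungs at 2 weeks (numbered 3126, 3127 and 3128), 65 Gy at 2 weeks (3129, 3130 and 3131), 75 Gy at 2 weeks (3132, 3133 and 3134), non-irradiated lungs at 6 weeks (3135, 3136 and 3137) and 75 Gy at 6 weeks (3141, 3142 and 3143), and 2 libraries for 65 Gy at 6 weeks (3138 and 3140). Values of single libraries are given below in this order. As each library holds RNA of a whole piece of lung, a change in the number of cells of a type and a change in RNA per cell cannot be told apart.

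The libraries held between 46764569 and 66797879 counts on genes, with a median of 57608149. The lowest count of any member in any library was 26, for Gls2, so that the other members were measured on more reads. Levels are given as CPM, the counts of a gene scaled to library size with TMM factors, and as RPKM, which is also divided by exon length, where genes are compared with each other. Some libraries stood apart. Library 3126 had a summed level of 76 ribosomal protein genes of 27026 CPM, against 18740 and 19871 CPM in the other 2-week controls, and library 3132 had 33215 CPM, against 21196 and 25363 CPM. Library 3138 had the lower value of the pair at 65 Gy and 6 weeks for 31 of the 36 members. Some results that depend on libraries 3126, 3132 or 3138 are given below with and without them. Within their own groups, library 3129 was lowest for 25 of the 36 members and 3141 for 21, and 3143 was highest for 21.

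Of the 36 members, 19 rose and 1 fell in the 65 Gy lungs at 2 weeks, and 21 rose and 5 fell in the 75 Gy lungs at 2 weeks. At 6 weeks, 14 rose and 1 fell after 65 Gy, and 20 rose and 4 fell after 75 Gy. A gene was said to rise or fall where its Benjamini-Hochberg adjusted value in edgeR's quasi-likelihood test was at most 0.05, against the non-irradiated lungs of the same time. Over all genes tested, 6.7% rose and 4.29% fell after 65 Gy at 2 weeks, 11.8% and 10.5% after 75 Gy at 2 weeks, 7.66% and 7.01% after 65 Gy at 6 weeks, and 18% and 18% after 75 Gy at 6 weeks. With a log2 fold change of at least 1 in addition, which defines the differentially expressed genes (DEGs), 11, 13, 7 and 10 members were higher in these groups, in the same order, against 3.47%, 5.67%, 4.34% and 7.28% of all genes. No member was a DEG in the lower direction, where 0.88%, 2.07%, 0.943% and 3.13% of all genes were. After 75 Gy at 2 weeks the number of members that were DEGs was 11 without library 3126, and 11 without library 3132. The median log2 fold change of the members was 0.56, 0.56, 0.35 and 0.52, whereas that of all genes lay between -0.01 and 0.04. With only the 6 libraries of the comparison fitted, 15 members rose and 0 fell after 75 Gy at 2 weeks, as Plk3, Bbc3, Pmaip1, Ei24, Tnfrsf10b and Rps27l no longer passed upward, nor Perp, Xpc, Ddb2, Rrm2b and Sesn1 downward. The comparisons of both doses share the control libraries of each time, so their counts are not independent of one another.

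**Figure D1:**
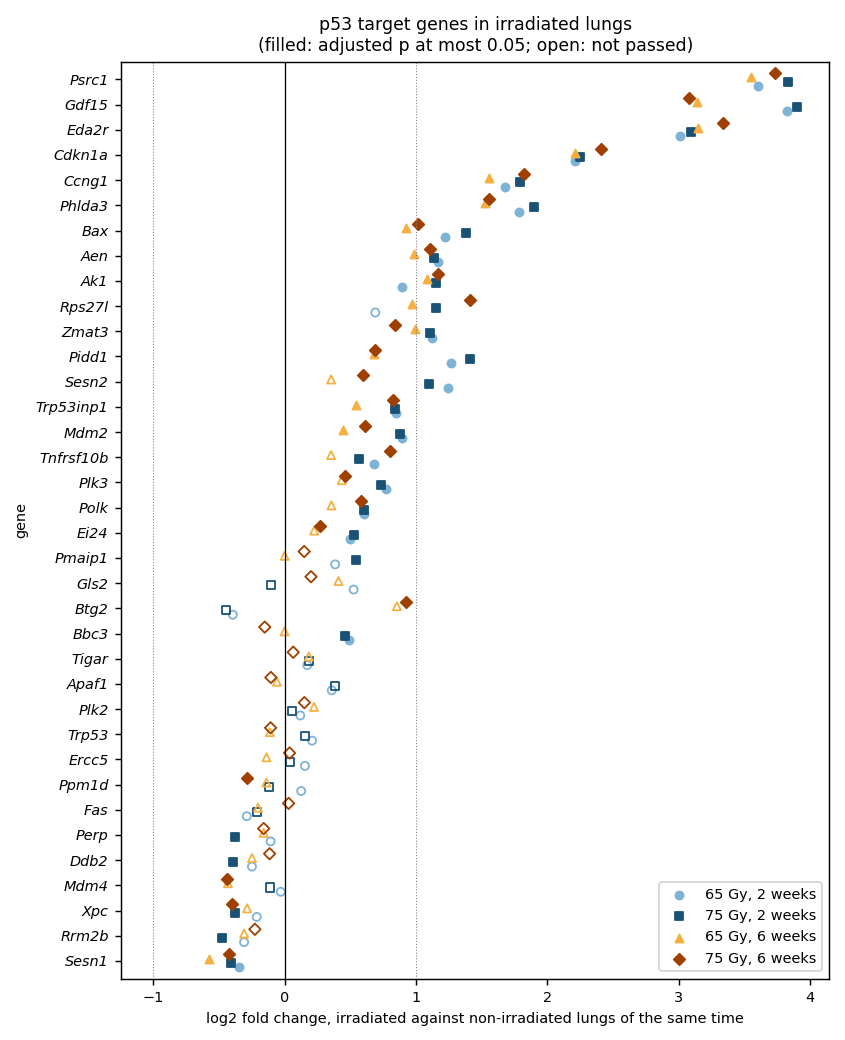
Log2 fold change of each of the 36 genes (rows) in irradiated against non-irradiated lungs of the same time, for 65 Gy and 75 Gy at 2 and 6 weeks, with filled symbols for an adjusted p of at most 0.05 and dotted lines at a log2 fold change of 1 in either direction. Psrc1, Gdf15 and Eda2r lie above 3 in all 4 groups, and no gene has filled symbols on both sides of 0.

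The members did not all move in the same way. In each of the 4 irradiated groups 13 members rose (Mdm2, Cdkn1a, Ccng1, Psrc1, Bax, Pidd1, Aen, Eda2r, Phlda3, Trp53inp1, Zmat3, Ak1 and Gdf15), and 6 of them were DEGs each time (Cdkn1a, Ccng1, Psrc1, Eda2r, Phlda3 and Gdf15). A further 6 members rose in 3 of the groups (Plk3, Ei24, Tnfrsf10b, Rps27l, Polk and Sesn2), Bbc3 rose in 2, and Btg2 and Pmaip1 rose in 1 each. Sesn1 fell in all 4 groups, and Mdm4, Ppm1d, Perp, Xpc, Ddb2 and Rrm2b fell in at least 1 of them. Trp53, Plk2, Apaf1, Fas, Ercc5, Tigar and Gls2 passed the test in none. No member rose in one group and fell in another. With the 4 irradiated groups joined, as the mean of their log2 fold changes, 22 members rose and 6 fell (20.6% and 21% of all genes). Irradiated libraries lay wholly above the controls of their time in 23 and 20 members at 2 weeks and in 20 and 21 at 6 weeks, for 65 Gy and 75 Gy, against 15.9%, 15.5%, 28.2% and 29.4% of all genes. In 16 members every one of the 11 irradiated libraries was above every one of the 6 non-irradiated ones, which held for 6.07% of all genes.

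The DNA at the start of the genes was looked at for the motif that p53 binds. The p53 half-site consensus was searched without mismatch on both strands of the stretch from 250 bases before to 50 bases after each annotated start (RefSeq, GRCm38.p6). Such a stretch was given for 27 of the 36 members, in 40 windows, and not for Pmaip1, Rrm2b, Ddb2, Xpc, Perp, Gls2, Tnfrsf10b, Trp53inp1 and Zmat3. The half-site was found in 11 of the 27 genes (Aen, Bax, Ccng1, Cdkn1a, Ei24, Mdm2, Polk, Ppm1d, Rps27l, Sesn1 and Trp53), or 40.7%, and in 9.55% of all 27025 genes with a stretch. Counted by window, the shares were 30% and 8.36%. As the members were listed as p53 targets beforehand, a higher share of such motifs is no separate support for the list. Those 11 include genes that rose, genes that fell and Trp53 itself. A pair of half-sites up to 13 bases apart with at most 2 mismatches in all was found in 4 members (14.8% against 2.47% of all genes), namely Cdkn1a, Rps27l, Bax and Sesn1. The windows of Psrc1, Gdf15, Eda2r and Phlda3, which were among the members that rose most, hold no half-site, which says nothing about sites elsewhere in these genes. Stretches of 100 bases are shown for Cdkn1a, with its matching pair, for Rps27l, Bax, Ccng1, Aen and Mdm2, which rose, and for Sesn1, which fell, with the half-sites in capitals.
Cdkn1a (chr17:29090872-29090971, + strand, 107 to 8 bases before the more upstream of its annotated starts): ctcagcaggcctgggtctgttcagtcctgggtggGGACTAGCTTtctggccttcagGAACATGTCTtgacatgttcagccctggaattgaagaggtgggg
Rps27l (chr9:66946261-66946360, + strand, 152 to 53 bases before a start): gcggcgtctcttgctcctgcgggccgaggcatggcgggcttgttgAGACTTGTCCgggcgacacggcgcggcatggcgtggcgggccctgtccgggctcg
Bax (chr7:45467045-45467144, - strand, 246 to 147 bases before the start): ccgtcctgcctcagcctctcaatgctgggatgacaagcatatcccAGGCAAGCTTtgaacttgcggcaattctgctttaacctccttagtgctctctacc
Ccng1 (chr11:40755417-40755516, - strand, 230 to 131 bases before the start): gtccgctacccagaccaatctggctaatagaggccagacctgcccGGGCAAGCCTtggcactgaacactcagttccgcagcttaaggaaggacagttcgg
Aen (chr7:78895892-78895991, + strand, 166 to 67 bases before a start): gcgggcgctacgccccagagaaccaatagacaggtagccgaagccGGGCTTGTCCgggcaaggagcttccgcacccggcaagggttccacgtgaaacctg
Mdm2 (chr10:117710890-117710989, - strand, 231 to 132 bases before the start): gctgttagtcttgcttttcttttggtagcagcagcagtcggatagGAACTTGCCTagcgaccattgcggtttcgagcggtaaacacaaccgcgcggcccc
Sesn1 (chr10:41887221-41887320, + strand, 218 to 119 bases before the more downstream of its starts): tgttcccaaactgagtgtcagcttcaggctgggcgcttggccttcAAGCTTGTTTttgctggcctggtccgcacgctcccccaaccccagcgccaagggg
In the Cdkn1a stretch both half-sites in capitals match in full, with 12 bases between them. The 10 bases directly after the second of them, left in lower case, match in all but their first base. With that half-site they form another pair within the limits used, with 1 mismatch. For each window only the pair with the fewest mismatches was recorded. The second half-sites in Rps27l, Bax and Sesn1 carry 1, 2 and 2 mismatches and are left in lower case. Rps27l has a further full half-site 210 bases before that start, outside the stretch shown. These matches describe the letters only, and no binding was measured.

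Trp53 itself did not pass the test in any irradiated group. Its levels were 39.5, 46.5 and 46.4 CPM in non-irradiated lungs at 2 weeks, 54.8, 45.4 and 52.8 CPM after 65 Gy and 45.3, 45.0 and 57.0 CPM after 75 Gy. The 3 groups overlapped. At 6 weeks the controls had 46.4, 44.7 and 45.0 CPM, the 65 Gy lungs 42.7 and 41.1 CPM, and the 75 Gy lungs 39.8, 42.4 and 44.1 CPM. The joined log2 fold change of Trp53 was 0.03, with a 95% interval from -0.10 to 0.17 (adjusted p = 0.707). The level of a protein that is regulated mostly by its stability cannot be read from these values.

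Mdm2, the ligase that marks p53 for degradation, rose in each irradiated group. Its levels at 2 weeks were 65.9, 72.3 and 63.1 CPM in controls, 117, 136 and 119.6 CPM after 65 Gy and 106, 118 and 145 CPM after 75 Gy. At 6 weeks they were 71.5, 70.7 and 75.1 CPM in controls, 86.9 and 109.9 CPM after 65 Gy and 97.8, 106 and 127 CPM after 75 Gy. No irradiated library was as low as the highest control. The fold change was 1.85 and 1.83 at 2 weeks and 1.36 and 1.53 at 6 weeks, for 65 Gy and 75 Gy (adjusted p = 0.000439, 0.000301, 0.0465 and 0.00202). The call of Mdm2 after 65 Gy at 6 weeks was lost without library 3140 (adjusted p = 0.364) and without any one of the 6-week controls (adjusted p up to 0.119). Mdm4, which binds and restrains p53, went the other way. It fell after 75 Gy at 6 weeks, from 181, 167 and 163 CPM in controls to 124, 129 and 123 CPM (log2 fold change -0.44, SE 0.13, adjusted p = 0.0151), and was at 129 and 124 CPM after 65 Gy (adjusted p = 0.0587). At 2 weeks its log2 fold changes were -0.03 and -0.11, neither past the test. The call of Mdm4 was lost without control 3135 (adjusted p = 0.0575) or 75 Gy library 3143 (adjusted p = 0.0519). Ppm1d, the phosphatase that switches off p53 and ATM, passed the test in that group alone and fell from a mean of 23.3 to 19.1 CPM (log2 fold change -0.29, SE 0.09, adjusted p = 0.0255). That call was lost without control 3135 or 3136 and without 75 Gy library 3142 or 3143 (adjusted p up to 0.123).

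Cdkn1a encodes p21, the inhibitor of cyclin-dependent kinases through which p53 halts the cell cycle. Its gene (NCBI GeneID 12575) lies at chr17:29090979-29100722 on the + strand of GRCm38. Its levels at 2 weeks were 118, 88.1 and 94.1 CPM in controls, 416, 471 and 499 CPM after 65 Gy and 519, 412 and 497 CPM after 75 Gy. At 6 weeks they were 41, 53.9 and 51.2 CPM in controls, 191 and 259 CPM after 65 Gy and 226, 259 and 289 CPM after 75 Gy. Irradiated and control libraries did not overlap within or across the times. The level of Cdkn1a was lower at 6 weeks than at 2 weeks in controls and in irradiated lungs, and the fold change over the controls of the same time was 4.62 and 4.76 at 2 weeks and 4.62 and 5.30 at 6 weeks. The log2 fold changes had SEs from 0.16 to 0.17, and the largest adjusted p was 1.65e-06. A transcript of unknown kind on the opposite strand shares 7.68% of the exon bases of Cdkn1a, and whether the counting used strand is not given in the sources used here.

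Ccng1, encoding cyclin G1, rose 3.20-fold and 3.47-fold at 2 weeks and 2.94-fold and 3.53-fold at 6 weeks, for 65 Gy and 75 Gy. Its controls lay between 97.4 and 149 CPM over both times, and the irradiated libraries between 262 and 535 CPM. Psrc1, which encodes a microtubule-binding protein of the mitotic spindle, was nearly silent in controls. It had 1.14, 1.39 and 1.32 CPM at 2 weeks and 1.20, 1.59 and 1.03 CPM at 6 weeks. After 65 Gy it had 14.4, 14.8 and 17.6 CPM at 2 weeks and 13.7 and 16.0 CPM at 6 weeks, and after 75 Gy it had 19.1, 14.1 and 21.6 CPM at 2 weeks and 15.8, 17.1 and 18.1 CPM at 6 weeks. All 11 irradiated libraries were thus far above the 6 controls, and their levels at 6 weeks were close to those at 2 weeks. The log2 fold change of Psrc1 was 3.60 and 3.83 at 2 weeks and 3.55 and 3.74 at 6 weeks (SE 0.19 to 0.20, largest adjusted p = 9.13e-08). By p, Psrc1 took rank 3 of 22052 genes in each of these comparisons.

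Plk3, a stress-responsive polo-like kinase, rose at 2 weeks after both doses and at 6 weeks after 75 Gy. Its means were 12.1 CPM in 2-week controls, 20.6 CPM after 65 Gy and 20.1 CPM after 75 Gy, and at 6 weeks 19.2, 25.9 and 26.4 CPM. The log2 fold change was 0.77, 0.73 and 0.46 where it rose, and 0.43 (SE 0.14, adjusted p = 0.0573) after 65 Gy at 6 weeks. Without library 3143 the call of Plk3 at 6 weeks was lost (adjusted p = 0.0605). Btg2, an antiproliferative factor and an immediate early gene, rose only after 75 Gy at 6 weeks, where it had 377, 403 and 472 CPM against 315, 171 and 174 CPM in controls (log2 fold change 0.93, SE 0.27, adjusted p = 0.0143). The 65 Gy lungs of 6 weeks had 270 and 524 CPM (adjusted p = 0.063), and at 2 weeks the log2 fold changes of Btg2 were -0.40 and -0.45, neither past the test. Control 3135 had by far the highest Btg2 of its group, and without it, or without library 3138, the 65 Gy value of Btg2 at 6 weeks also passed (adjusted p = 0.018 and 0.0397). The 75 Gy call was lost without control 3136 or 3137 or without library 3143 (adjusted p up to 0.0667). Plk2 passed in no group, with log2 fold changes between 0.06 and 0.22.

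**Figure D2:**
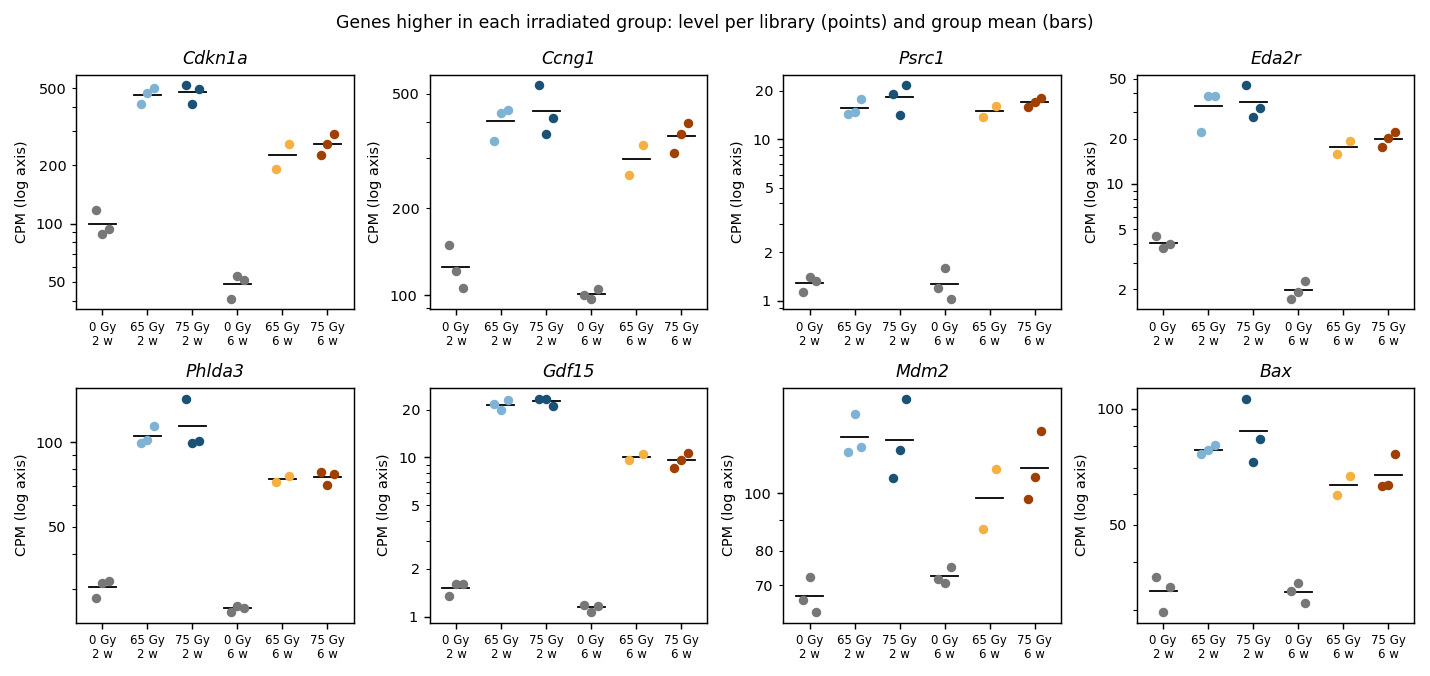
Level in CPM (log axis) of 8 genes in each library (points) and the mean of each group (bars), for non-irradiated (0 Gy), 65 Gy and 75 Gy lungs at 2 and 6 weeks. Irradiated and control libraries do not overlap in any panel, and the levels of Cdkn1a, Eda2r and Gdf15 in irradiated lungs are lower at 6 weeks than at 2 weeks.

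The members listed under apoptosis were Bax, Bbc3, Pmaip1, Apaf1, Perp, Ei24, Pidd1 and Aen, and not all of their products act at mitochondria. Of these, 5 of 8 rose after 65 Gy and 6 of 8 after 75 Gy at 2 weeks, and 3 and 4 of 8 at 6 weeks. The shares of all genes that rose were 6.7%, 11.8%, 7.66% and 18%, in the same order. Bax, whose product permeabilizes the outer mitochondrial membrane, had 36.5, 29.7 and 34.5 CPM in 2-week controls, 76.5, 78.1 and 80.3 CPM after 65 Gy and 106, 72.7 and 83.3 CPM after 75 Gy. At 6 weeks the controls had 33.6, 35.2 and 31.4 CPM, the 65 Gy lungs 59.6 and 66.9 CPM, and the 75 Gy lungs 62.9, 63.3 and 76.4 CPM. The lowest irradiated library of Bax was thus above the highest control. The fold change was 2.33 and 2.60 at 2 weeks and 1.89 and 2.02 at 6 weeks (largest adjusted p = 0.000685). Another annotated gene on the same strand shares 12.18% of the exon bases of Bax, so part of these reads cannot be assigned to one of them.

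The BH3-only genes Bbc3 and Pmaip1, which encode PUMA and NOXA and set BAX free, changed less. Bbc3 had 13.1, 15.6 and 18.4 CPM in 2-week controls, 20.0, 23.3 and 23.0 CPM after 65 Gy and 20.2, 23.0 and 21.7 CPM after 75 Gy, without overlap (log2 fold change 0.49 and 0.46, adjusted p = 0.0137 and 0.00984). At 6 weeks it had 17.7, 18.4 and 17 CPM in controls, 17.6 and 17.8 CPM after 65 Gy and 17.4, 15.4 and 15 CPM after 75 Gy, and neither group passed. The difference of the 75 Gy effect on Bbc3 between the times was -0.61 (SE 0.16) and did not pass either (adjusted p = 0.127), although DESeq2 called it (adjusted p = 0.0123). The 65 Gy call of Bbc3 at 2 weeks was lost without library 3130 (adjusted p = 0.0506) or 3131 (adjusted p = 0.0542). Pmaip1 rose after 75 Gy at 2 weeks, from 17, 15.2 and 17.5 CPM to 23.5, 22.6 and 26.5 CPM (log2 fold change 0.55, SE 0.15, adjusted p = 0.0151). That call was lost without control 3127 (adjusted p = 0.0653) or library 3134 (adjusted p = 0.0612), and the other log2 fold changes of Pmaip1 were at most 0.38.

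Pidd1, whose product assembles the caspase-2 platform, was low in controls (3.23, 3.79 and 4.94 CPM at 2 weeks) and had 11.8, 8.33 and 8.66 CPM after 65 Gy and 9.19, 9.30 and 13.4 CPM after 75 Gy. Its fold change was 2.41 and 2.66 at 2 weeks and 1.60 and 1.61 at 6 weeks. The 65 Gy call of Pidd1 at 6 weeks (adjusted p = 0.0369) was lost without any one of its 5 libraries (adjusted p up to 0.175). Aen, an apoptosis-enhancing nuclease, rose 2.25-fold and 2.20-fold at 2 weeks and 1.98-fold and 2.15-fold at 6 weeks. Its controls lay between 17.6 and 31.9 CPM and its irradiated libraries between 36.8 and 62.1 CPM. Ei24, which encodes a membrane protein of the endoplasmic reticulum, rose by log2 0.50 and 0.53 at 2 weeks and by 0.27 after 75 Gy at 6 weeks, where the call was lost without control 3135 or 3137 or without library 3142 or 3143 (adjusted p up to 0.0983). Apaf1, which forms the apoptosome, had log2 fold changes of 0.36 and 0.38 at 2 weeks that missed the threshold (adjusted p = 0.105 and 0.0543), and it passed after 75 Gy without library 3132 (adjusted p = 0.00636). Perp, a membrane protein of desmosomes, fell after 75 Gy at 2 weeks, from a mean of 23.8 to 18.3 CPM (log2 fold change -0.38, SE 0.11, adjusted p = 0.0227). The Perp call was lost without control 3126 or 3127 or without library 3133 or 3134 (adjusted p up to 0.0833).

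Of the members that encode receptors of the tumour necrosis factor receptor family (Eda2r, Tnfrsf10b and Fas), Eda2r changed most. Its product binds an ectodysplasin isoform. Eda2r (NCBI GeneID 245527, chrX:97333837-97377234, - strand) had 4.55, 3.75 and 3.97 CPM in 2-week controls, 22.2, 38.2 and 38.2 CPM after 65 Gy and 45.2, 27.6 and 31.9 CPM after 75 Gy. At 6 weeks the controls had 1.74, 1.93 and 2.29 CPM, the 65 Gy lungs 15.7 and 19.4 CPM, and the 75 Gy lungs 17.5, 20.3 and 22.2 CPM. Every irradiated library was above every control. The fold change was 8.04 and 8.54 at 2 weeks and 8.84 and 10.1 at 6 weeks (SE of the log2 values 0.23 to 0.25, largest adjusted p = 2.04e-06).

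Tnfrsf10b, the mouse death receptor for TRAIL, rose at 2 weeks after both doses and at 6 weeks after 75 Gy. Its levels at 2 weeks were 18.8, 11 and 12 CPM in controls, 19.8, 24.6 and 22.7 CPM after 65 Gy and 21.2, 17.6 and 23.1 CPM after 75 Gy, so that the 75 Gy lungs overlapped control 3126. At 6 weeks they were 8.27, 7.97 and 7.89 CPM in controls, 8.81 and 11.7 CPM after 65 Gy and 13, 13.6 and 15.6 CPM after 75 Gy. The fold change of Tnfrsf10b was 1.60, 1.48 and 1.75 where it rose (adjusted p = 0.0233, 0.0325 and 0.00325). Its calls at 2 weeks were lost without control 3127 or 3128, without library 3130 or 3131 for 65 Gy, and without library 3132 or 3134 for 75 Gy (adjusted p up to 0.141). Fas, the receptor for Fas ligand, passed in no group. Its log2 fold changes lay between -0.29 and 0.03, and its irradiated libraries between 29.0 and 44.6 CPM overlapped the controls, which reached 57.1 CPM in library 3126.

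Phlda3, which encodes a repressor of AKT, rose in each group. It had 27.9, 31.7 and 32.2 CPM in 2-week controls, 99.2, 102 and 114 CPM after 65 Gy and 143, 98.9 and 101 CPM after 75 Gy. At 6 weeks it had 25.0, 26.2 and 25.8 CPM in controls, 72.0 and 75.6 CPM after 65 Gy and 78.5, 70.5 and 76.9 CPM after 75 Gy. The groups were far apart and their replicates close together, except for library 3132. The fold change was 3.44 and 3.73 at 2 weeks and 2.87 and 2.94 at 6 weeks (largest adjusted p = 6.11e-06). Trp53inp1, whose product acts in autophagy and in p53 phosphorylation, rose 1.80-fold and 1.79-fold at 2 weeks and 1.46-fold and 1.77-fold at 6 weeks. Its 65 Gy call at 6 weeks was lost without library 3140 (adjusted p = 0.315) and without any one control (adjusted p up to 0.0968). Zmat3, an RNA-binding splicing regulator, rose 2.17-fold and 2.15-fold at 2 weeks and 1.99-fold and 1.79-fold at 6 weeks, with controls from 25.2 to 40.1 CPM and irradiated libraries from 48.7 to 81.1 CPM.

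Rps27l, which encodes a ribosomal protein similar to RPS27, depended more on single libraries. It had 53.8, 33.2 and 28.1 CPM in 2-week controls, 60.2, 64.1 and 61.4 CPM after 65 Gy and 126, 60.0 and 69.9 CPM after 75 Gy. Libraries 3126 and 3132, in which it was highest, are those with the highest summed level of ribosomal protein genes in their groups, and the part of this in the values of Rps27l was not tested. The log2 fold change after 75 Gy at 2 weeks was 1.15 (SE 0.25, adjusted p = 0.00435), and 0.75 without library 3132 (adjusted p = 0.0183). After 65 Gy it was 0.69 (adjusted p = 0.0905), and it passed without control 3126 (adjusted p = 0.0177). At 6 weeks Rps27l had 28.3, 30.9 and 27.3 CPM in controls, 50.7 and 62.2 CPM after 65 Gy and 65.7, 86.4 and 78.1 CPM after 75 Gy, with fold changes of 1.96 and 2.66. The summed level of ribosomal protein genes also differed without overlap, with 20248 to 22613 CPM in controls, 24222 to 26491 CPM after 65 Gy and 28036 to 31436 CPM after 75 Gy, and its part in these values was not tested. The 65 Gy call of Rps27l (adjusted p = 0.0289) was lost without any one of its 5 libraries (adjusted p up to 0.20).

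Of the 5 members of DNA repair and nucleotide supply, 1 was higher and 3 were lower in the 2-week lungs given 75 Gy. Among all genes, 11.8% were higher and 10.5% lower there. In the 6-week lungs given 75 Gy, 1 member was higher and 1 lower, against 18% and 18% of all genes. With 65 Gy, 1 member was higher in the 2-week lungs (all genes: 6.7% higher, 4.29% lower). None passed in the 6-week lungs of that dose (all genes: 7.66% higher, 7.01% lower). Whether these counts differ from the shares was not tested. The member that rose was Polk, a translesion DNA polymerase. It had a mean of 24.3 CPM in 2-week controls and 37.0 CPM after either dose, and 24.7, 31.6 and 36.9 CPM in controls, 65 Gy and 75 Gy lungs at 6 weeks. The log2 fold change of Polk was 0.61 and 0.60 at 2 weeks and 0.58 after 75 Gy at 6 weeks, and 0.36 after 65 Gy (adjusted p = 0.0794). Xpc, the damage sensor of nucleotide excision repair, had 43.5, 48.2 and 52.5 CPM in 2-week controls, 39.2, 44.4 and 40.8 CPM after 65 Gy and 39.6, 38.4 and 32.9 CPM after 75 Gy. At 6 weeks it had 53.3, 54.8 and 54.8 CPM in controls, 44.0 and 44.9 CPM after 65 Gy and 42.6, 40.8 and 39.6 CPM after 75 Gy. It fell after 75 Gy at both times (log2 fold change -0.38 and -0.40, SE 0.09 each, adjusted p = 0.00635 and 0.00266), and after 65 Gy the values were -0.21 and -0.29 (adjusted p = 0.137 and 0.0634). The 2-week call of Xpc was lost when only the groups compared were fitted (adjusted p = 0.12).

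Rrm2b, the p53-inducible subunit of ribonucleotide reductase, fell after 75 Gy at 2 weeks, from 61.6, 49.4 and 43.7 CPM to 41.8, 36.6 and 32.5 CPM (log2 fold change -0.48, SE 0.12, adjusted p = 0.0099). Its other log2 fold changes lay between -0.31 and -0.23 and did not pass (after 65 Gy at 2 weeks Rrm2b passed without control 3128, adjusted p = 0.0474), though both irradiated groups of 6 weeks lay wholly below the controls. Ddb2, which recognizes ultraviolet damage with DDB1, fell in the same group, from 13.3, 10.7 and 12.4 CPM to 9.19, 9.33 and 9.11 CPM (log2 fold change -0.39, SE 0.12, adjusted p = 0.0326). The Ddb2 call was lost without control 3126 or 3128 and without any one of the 3 irradiated libraries (adjusted p up to 0.0993), and Acp2 on the opposite strand shares 23.83% of its exon bases. Ercc5, an endonuclease of excision repair, passed in no group, with log2 fold changes between -0.14 and 0.15.

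Sesn1 and Sesn2 encode sestrins, stress proteins that restrain mTORC1, and they moved in opposite directions. Sesn1 fell in each group. Its levels at 2 weeks were 44.2, 46.0 and 50.4 CPM in controls, 36.7, 38.5 and 35.1 CPM after 65 Gy and 35.2, 37.3 and 33.3 CPM after 75 Gy. At 6 weeks they were 70.3, 65.2 and 60.9 CPM in controls, 39.6 and 48.3 CPM after 65 Gy and 45.0, 50.7 and 50.6 CPM after 75 Gy. No irradiated library reached the controls of its time. The log2 fold change was -0.35 and -0.41 at 2 weeks and -0.58 and -0.43 at 6 weeks (adjusted p = 0.0269, 0.00578, 0.00286 and 0.00285). The Sesn1 call after 65 Gy was lost at 2 weeks without control 3127 or 3128 or library 3129 or 3131 (adjusted p up to 0.101), and at 6 weeks without library 3138 (adjusted p = 0.0663). Without scaling factors its 65 Gy call at 2 weeks was also lost (adjusted p = 0.0574), and so was its 75 Gy call at 2 weeks when only the groups compared were fitted (adjusted p = 0.07). Sesn2 rose, from 12.7, 19.4 and 20.5 CPM in 2-week controls to 37.0, 46.1 and 41 CPM after 65 Gy and 33.3, 35.5 and 43.4 CPM after 75 Gy (2.36-fold and 2.14-fold). At 6 weeks the means were 22.5, 28.7 and 33.9 CPM, with a fold change of 1.51 after 75 Gy (adjusted p = 0.00907) and 1.28 after 65 Gy (adjusted p = 0.195).

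**Figure D3:**
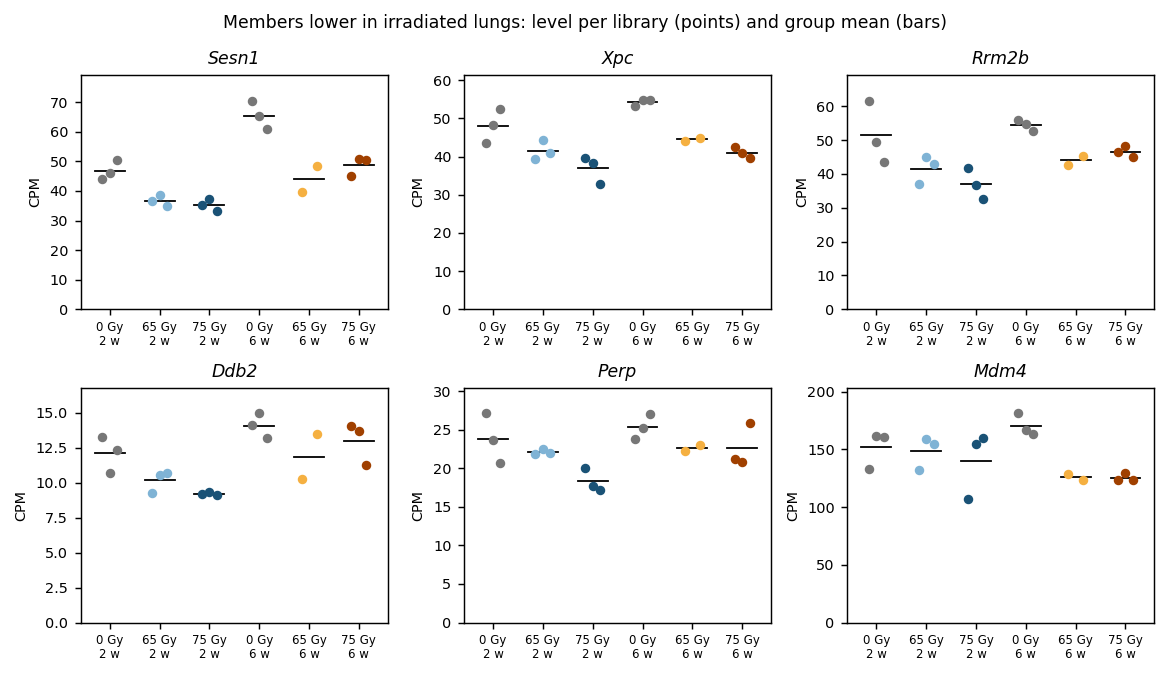
Level in CPM (axis from 0) of 6 genes that fell in at least 1 irradiated group, in each library (points) with the mean of each group (bars). Sesn1 in irradiated lungs is below the controls of the same time in each comparison, while each of the other genes shown overlaps its controls in at least 1 group.

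Gdf15, a secreted cytokine of the TGF-beta superfamily that is released under stress, had the smallest p of all 22052 genes in each of the 4 comparisons. Its gene (NCBI GeneID 23886) lies at chr8:70629393-70632470 on the - strand. It had 1.34, 1.61 and 1.60 CPM in 2-week controls, 21.6, 19.9 and 22.8 CPM after 65 Gy and 23.5, 23.4 and 21.2 CPM after 75 Gy. At 6 weeks it had 1.18, 1.07 and 1.17 CPM in controls, 9.58 and 10.5 CPM after 65 Gy and 8.55, 9.68 and 10.7 CPM after 75 Gy. Replicates differed little, and every irradiated library was above every control. The fold change was 14.1 and 14.9 at 2 weeks and 8.79 and 8.42 at 6 weeks (SE of the log2 values 0.12 to 0.13, largest adjusted p = 3.42e-09). Ak1, which encodes a cytosolic adenylate kinase, rose 1.86-fold and 2.22-fold at 2 weeks and 2.12-fold and 2.24-fold at 6 weeks, with controls from 21 to 27.0 CPM and irradiated libraries from 41.3 to 65.1 CPM. Tigar, a fructose bisphosphatase that slows glycolysis, passed in no single group and rose slightly when the groups were joined (log2 fold change 0.15, SE 0.05, adjusted p = 0.0357), a call that was lost without library 3128, 3129, 3135, 3136, 3137 or 3138 (adjusted p up to 0.0935). Gls2, the liver-type glutaminase, was at 0.496 to 1.33 CPM in the 17 libraries and passed in no group, and its intervals were the widest of its role, with a log2 fold change after 65 Gy at 2 weeks of 0.52 and an interval from -0.08 to 1.13.

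The levels of the members per length also changed their order. In non-irradiated lungs at 2 weeks the highest mean levels were those of Btg2 at 98.1 RPKM, Rps27l at 47 RPKM, Ccng1 at 35.8 RPKM and Cdkn1a at 28.1 RPKM. The lowest were Gls2 at 0.201 RPKM, Psrc1 at 0.381 RPKM, Eda2r at 0.694 RPKM, Gdf15 at 0.818 RPKM and Pidd1 at 0.880 RPKM. After 75 Gy at 2 weeks, Cdkn1a at 134 RPKM and Ccng1 at 124 RPKM were highest, and Psrc1, Eda2r and Gdf15 had reached 5.43, 5.93 and 12.3 RPKM. The members with the largest fold changes therefore started from low levels, and Cdkn1a and Ccng1 gained the most reads per length after 75 Gy at 2 weeks.

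Time was compared by testing the difference between the effect of a dose at 6 weeks and its effect at 2 weeks. After 75 Gy this difference passed for 1 of 36 members, Gdf15, whose log2 fold change was 0.83 smaller at 6 weeks (-0.83, SE 0.16, adjusted p = 0.0493), and 0.0635% of all genes passed in that direction and 0.236% in the other. The call is at the edge of the threshold. It was lost when any one of 10 of the 12 libraries was left out (adjusted p up to 0.139, without control 3135), and kept without library 3134 or 3141. After 65 Gy the difference of Gdf15 was -0.69 (SE 0.17, adjusted p = 0.32), and none of the 36 members passed. Of all genes, 0.0136% passed in the upward direction and 0% in the other. At an unadjusted p under 0.05 were 6 of the 36 after 65 Gy (8.65% of all genes) and 6 after 75 Gy (16.1% of all genes). DESeq2 also called none after 65 Gy, and called Btg2 (adjusted p = 0.0173) and Bbc3 (adjusted p = 0.0123) besides Gdf15 after 75 Gy. The estimate of the log2 fold change was lower at 6 weeks than at 2 weeks in 23 of 36 members after 75 Gy and in 27 of 36 after 65 Gy, where 50.3% and 51% of all genes had a lower estimate. The intervals for Cdkn1a, Psrc1 and Eda2r at 75 Gy ran from -0.30 to 0.61, from -0.63 to 0.44 and from -0.41 to 0.90, so that a moderate change between the stages in either direction is within the error.

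**Figure D4:**
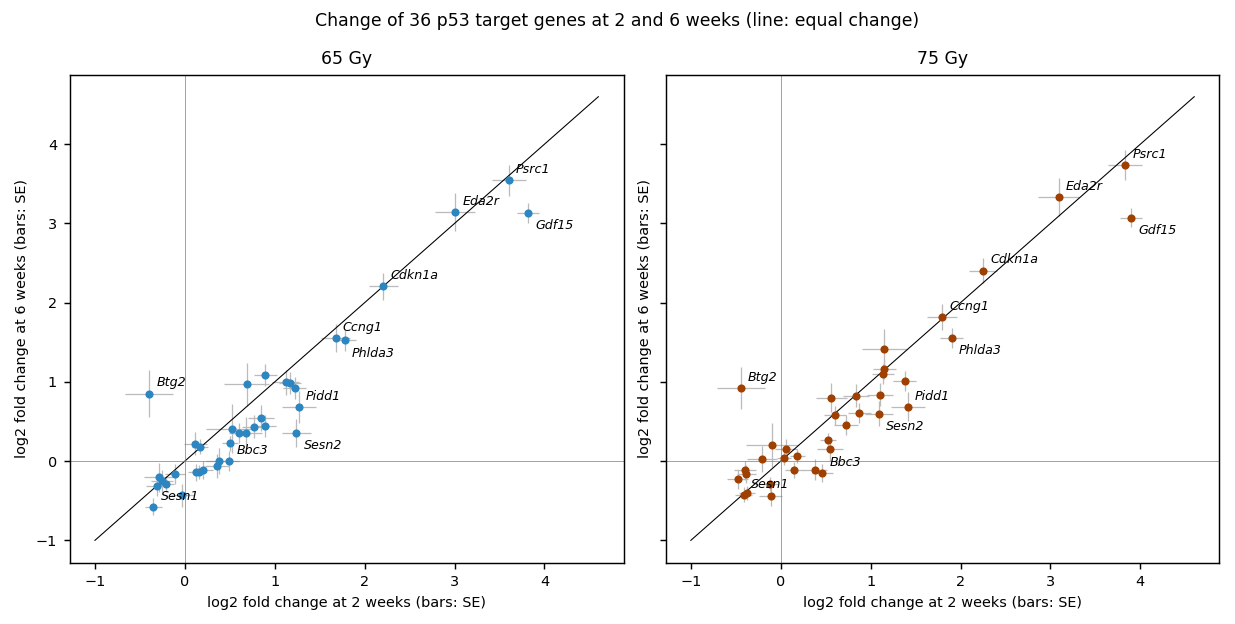
Log2 fold change of the 36 genes against non-irradiated lungs at 2 weeks (x axis) and at 6 weeks (y axis), with bars for the SE and a line for equal change, for 65 Gy and 75 Gy. Gdf15, Pidd1 and Sesn2 lie below the line and Btg2 above it at both doses, and only Gdf15 at 75 Gy passed the test of the difference.

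The doses were compared with each other at each time. No member differed between 75 Gy and 65 Gy with an adjusted p of at most 0.05 at 2 or 6 weeks, nor did any of the 22052 genes (0%) in edgeR's quasi-likelihood test, and DESeq2 and edgeR's exact test also called 0 members. At an unadjusted p under 0.05 there were 3 members at 2 weeks, Ppm1d, Perp and Gls2, each lower after 75 Gy, and 1 member at 6 weeks, Tnfrsf10b, which was higher. Over all genes 7.12% and 6.49% reached that level. The 95% interval of the difference lay within a 2-fold change in either direction for 35 of 36 members at 2 weeks and for 35 at 6 weeks, and within a 1.5-fold change for 33 and 27. For Cdkn1a the log2 difference was 0.04 (interval from -0.28 to 0.36) at 2 weeks and 0.20 (from -0.16 to 0.56) at 6 weeks. For Gdf15 it was 0.08 (from -0.14 to 0.30) and -0.06 (from -0.31 to 0.19). The widest upward intervals were those of Rps27l, with differences of 0.46 (from -0.06 to 0.99) and 0.44 (from -0.15 to 1.04). The estimate was higher after 75 Gy for 15 of 36 members at 2 weeks and for 25 at 6 weeks (50.3% and 51.7% of all genes), and at 6 weeks the 65 Gy group includes library 3138, the lower of its pair for 31 members.

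**Figure D5:**
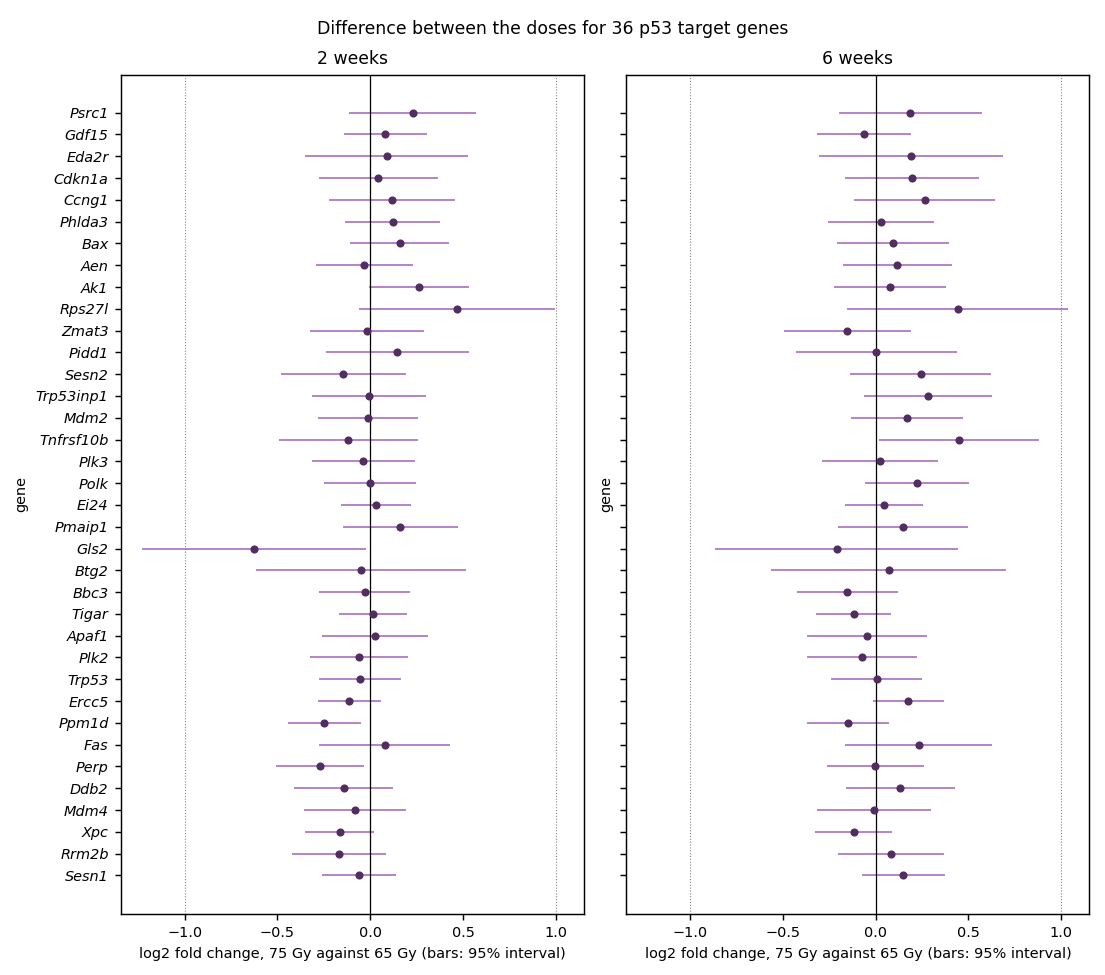
Log2 fold change of 75 Gy against 65 Gy for each of the 36 genes at 2 weeks and at 6 weeks, with bars for the 95% interval and dotted lines at a 2-fold change. Most intervals include 0 and stay within the dotted lines, with Gls2 at 2 weeks and Rps27l at 6 weeks reaching past them.

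The non-irradiated lungs of the 2 times were also compared, since they are the baseline of all fold changes. From 2 to 6 weeks, Cdkn1a and Eda2r fell (log2 fold change -1.04 each, SE 0.15 and 0.23, adjusted p = 0.00381 and 0.0348), as did Tnfrsf10b (-0.79, SE 0.18, adjusted p = 0.0399), and Plk3 (0.66, SE 0.13, adjusted p = 0.0223) and Sesn1 (0.48, SE 0.09, adjusted p = 0.0193) rose. Of all genes 0.612% rose and 1.02% fell. Eda2r lost its call without any one of the 6 controls (adjusted p up to 0.146), and Tnfrsf10b without 3126, 3135, 3136 or 3137 (adjusted p up to 0.137). Plk3 lost its call without 3127, 3135, 3136 or 3137 (adjusted p up to 0.0898), and Sesn1 without 3126, 3127, 3135 or 3136 (adjusted p up to 0.0966). Cdkn1a kept its call without each of the controls in turn, and lost it when only the 6 controls were fitted (adjusted p = 0.0519). The 2-week controls have the higher level of Cdkn1a and Eda2r, so that the fold changes at 6 weeks are taken over a lower base.

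Other genes of the pathway were taken from 5 lists. Of all genes, 6.7% rose and 4.29% fell after 65 Gy at 2 weeks, and 11.8% and 10.5% after 75 Gy. At 6 weeks 7.66% of all genes rose and 7.01% fell after 65 Gy, and 18% and 18% after 75 Gy. Of 23 genes upstream of p53 (damage kinases, cofactors and family members), 3 rose and 1 fell after 65 Gy at 2 weeks, 4 rose and 5 fell after 75 Gy at 2 weeks, 4 rose and 5 fell after 65 Gy at 6 weeks, and 4 rose and 12 fell after 75 Gy at 6 weeks. Brca1, a repair gene that is itself transcribed in cycling cells, rose by 1.06 on the log2 scale over the joined groups (SE 0.105, adjusted p = 2.88e-06), and Ppp1r13b and Trp53bp2, which encode the ASPP partners of p53, fell by 0.74 and 0.55 on that scale (adjusted p = 3.91e-06 and 3.24e-05). Cdkn2a, which encodes p16 and p19ARF, an inhibitor of MDM2, stayed low at 2 weeks (mean 0.466 CPM in controls, 0.451 CPM after 65 Gy and 0.699 CPM after 75 Gy). At 6 weeks its means were 0.624, 1.40 and 1.94 CPM, and it rose after 75 Gy (log2 fold change 1.63, SE 0.38, adjusted p = 0.00429). After 65 Gy at 6 weeks the value of Cdkn2a was 1.17 (SE 0.41, adjusted p = 0.0726), and the difference of its 75 Gy effect between the times, 1.06 (SE 0.55), did not pass the test (adjusted p = 0.353).

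Of 42 further p53 targets, 17 rose and 1 fell after 65 Gy at 2 weeks, and 17 and 5 after 75 Gy. At 6 weeks, 11 rose and 7 fell after 65 Gy, and 16 and 11 after 75 Gy. The medians were 0.25, 0.19, 0.08 and 0.10 on the log2 scale. Of all genes, 6.7% and 4.29%, 11.8% and 10.5%, 7.66% and 7.01%, and 18% and 18% rose and fell, in the same order. The 3 further targets with the smallest p over the joined groups were Ckap2 (log2 fold change 1.87, SE 0.12), Gtse1 (2.54, SE 0.17) and Slc19a2 (1.36, SE 0.10). Ckap2 and Gtse1 encode microtubule-associated proteins of mitotic cells, and Slc19a2 encodes a thiamine transporter. Among 6 other inhibitors of cyclin-dependent kinases, Cdkn1b and Cdkn1c fell over the joined groups (log2 fold change -0.43 and -0.64), and Cdkn2a was the one that rose. Among 13 other genes of the BCL2 family, 4 rose in each irradiated group and 2, 2, 1 and 3 fell, with Bcl2a1b (joined log2 fold change 1.83) and Bak1 (0.72) higher and Bcl2l2 (-0.42) lower.

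Genes of the cell cycle that p53 represses through p21 and the DREAM complex were higher in the same lungs as Cdkn1a. Of 26 such genes, 22 rose and none fell after 65 Gy at 2 weeks, where 6.7% of all genes rose. After 75 Gy at 2 weeks 25 rose and none fell, where 11.8% of all genes rose. The medians were 1.60 and 1.64 on the log2 scale. At 6 weeks, 7 and 17 rose and none fell, with medians of 0.65 and 0.77 (7.66% and 18% of all genes rose). Their summed level was 173 to 187 CPM in 2-week controls, 361 to 574 CPM after 65 Gy and 383 to 613 CPM after 75 Gy at 2 weeks, and at 6 weeks 165 to 198, 245 to 288 and 249 to 301 CPM. Cdk1, Ccnb1 and Ttk had the smallest p, with joined log2 fold changes of 1.68, 1.74 and 1.38 (adjusted p = 3.04e-06, 3.98e-06 and 4.48e-06). These libraries do not tell whether the same cells held the transcripts of Cdkn1a and of the cell cycle genes. Psrc1, Ckap2 and Gtse1 are transcribed in dividing cells as well, and the part of the cell cycle genes in their rise was not tested.

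Markers of several cell types moved with irradiation too. Over the joined groups, 20.6% of all genes rose and 21% fell. All 8 macrophage markers rose over the joined groups (median log2 fold change 1.93), with a summed level of 4344 to 10443 CPM over the controls of both times and 8757 to 14769 CPM over the irradiated libraries. All 8 neutrophil markers fell, from 439 to 771 CPM down to 118 to 340 CPM, and 7 of 8 markers of capillary endothelium fell, from 3416 to 3856 CPM down to 1378 to 2691 CPM. Of 8 alveolar type 1 markers 1 rose and 6 fell, and of 8 alveolar type 2 markers none passed over the joined groups in edgeR's quasi-likelihood test (3 at an unadjusted p under 0.05). T cell markers rose in 6 of 8, B and plasma cell markers in 2 with 4 lower, club and ciliated cell markers in 3 with 3 lower, and fibroblast markers in 3 with 2 lower of 8. Of 7 markers each, erythroid genes fell in 1, adipocyte genes rose in 1 and fell in 1, and cardiac muscle genes passed in none (1 at an unadjusted p under 0.05). No gene of these lists was at 0 in every library, though Lep of the adipocyte list was at 0 in at least 1 library of each irradiated group at 2 weeks and Nppa of the cardiac list in at least 1 library of 75 Gy at 2 weeks. The alveolar type 2 markers summed to between 18185 and 33171 CPM in all libraries, as the label of lung tissue implies. The part of these shifts in the values of the p53 targets was not tested.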

How the data were processed

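RNA from 17 mouse lung samples was prepared with a stranded mRNA kit (TruSeq) and sequenced in read pairs on a NovaSeq. The authors used Trimmomatic for trimming, HISAT2 for alignment (genome GRCm38.p6) and StringTie for assembly, and deposited raw read counts per gene. How counts were drawn from the assembly, and with which strand setting, is not given in the sources used here. A further library labelled 65 Gy at 6 weeks (3139) was not analysed here.

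The 36 members and the other gene lists were chosen with earlier results of these data known. All 17 libraries entered one fit with edgeR's quasi-likelihood test (edgeR 4.0.16, limma 3.58.1, R 4.3.3) after filterByExpr (minimum count 10, total 15) and TMM scaling, which left 22052 of 45777 genes. P-values were adjusted over all of them by the Benjamini-Hochberg method (threshold 0.05), and a DEG also needed a log2 fold change of at least 1 in size. The SE was taken from the fold change and the F statistic, and intervals are 95% intervals. CPM and RPKM were computed from the deposited counts and GENCODE exon lengths. All 36 members are named, and of each other list at most the 3 genes with the smallest p for irradiated against control, with Cdkn2a in addition. The list of ribosomal protein genes was added after the data had been seen. The labels say only that samples are separate, so p-values measure the spread between these samples. Libraries held 46764569 to 66797879 counts, and for members with few reads, such as Gls2, Psrc1 and Gdf15 in controls, counting error is part of that spread. Alternatives were RLE scaling, no scaling, no filter, a minimum of 10 counts in every library, DESeq2 1.42.0, edgeR's exact test, a fit of the compared groups alone, and leaving out each library. The scripts were tested on simulated data.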

Additional observations from a re-analysis of the deposited data

Results flagged for a closer look

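The effect of 75 Gy on Gdf15 differed between the times in a test of the difference itself. The log2 fold change over controls was 3.90 at 2 weeks and 3.07 at 6 weeks, a difference of -0.83 (SE 0.16, edgeR's quasi-likelihood test, adjusted p = 0.0493). Control levels were 1.52 ± 0.153 CPM at 2 weeks and 1.14 ± 0.0622 CPM at 6 weeks (SD, n = 3 each), and the 75 Gy lungs had 22.7 ± 1.33 and 9.64 ± 1.07 CPM (n = 3 each). After 65 Gy the difference was -0.69 (adjusted p = 0.32). Leaving out single libraries moved the adjusted p of Gdf15 at 75 Gy up to 0.139, as given above.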

How the results depend on the processing

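No member changed direction with its call under any alternative. Fitting only the compared groups gave 0 members lower after 75 Gy at 2 weeks (5 before), 4 lower after 65 Gy at 6 weeks (1 before), 0 higher, 0 lower and 0 DEGs between the controls (2, 3 and 2 before), and 0 lower for the 75 Gy difference between the times (1 before). Without scaling, 0 members were lower after 65 Gy at 2 weeks (1 before) and 0 for the 75 Gy difference, and without the filter 3 were lower after 75 Gy at 2 weeks and 0 for that difference. Members lower after 65 Gy at 6 weeks numbered 2 with at least 10 counts in every library, 3 by DESeq2 and 2 by the exact test. Members lower between the controls numbered 5 by DESeq2 and 5 by the exact test, and for the 75 Gy difference DESeq2 called 1 higher, 2 lower and 1 DEG. The causes were not tested.

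Leaving out single libraries gave 0 to 1 members lower after 65 Gy at 2 weeks (0 without 3127, 3129 or 3131), 3 to 4 after 75 Gy at 2 weeks (3 without 3126, 3133 or 3134), 0 to 1 after 65 Gy at 6 weeks (0 without 3138) and 2 to 4 after 75 Gy at 6 weeks (2 without 3135 or 3143). DEGs after 65 Gy at 6 weeks numbered 7 to 11 (11 without 3138). Between the controls, 0 to 2 were higher (0 without 3127, 3135 or 3136), 1 to 3 lower (1 without 3126, 3135, 3136 or 3137) and 0 to 1 DEGs (0 without 3126 or 3135), and for the 75 Gy difference 0 to 1 were lower. Counts of members higher ran from 17 to 20, 19 to 21, 10 to 13 and 17 to 20 in the irradiated groups. Without 3138 or 3140 the 65 Gy group at 6 weeks is 1 library, which is assumed to vary like the others. No paired analysis was possible because the groups share no replicate number. Gdf15 in the 6-week controls rests on 60 to 73 counts a library and Gls2 on as few as 26, so that depth limits their precision.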
